A study of Rattus norvegicus with 26 samples.

Results

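The genes described here encode metabotropic glutamate receptors, the receptors through which glutamate acts by way of G proteins rather than by opening an ion channel. The members were the 6 genes named Grm2, Grm3, Grm4, Grm5, Grm7 and Grm8 among the 32883 genes of the count table, and each was followed through all 8 groups of rat spinal cord. The rule took them by name. The table holds 2 further genes of this receptor family, which were not analysed here.

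Glutamate is the main excitatory transmitter of the spinal cord, and its metabotropic receptors tune the synapses that use it. Group I receptors, here Grm5, couple to Gq and phospholipase C and sit mainly on the receiving side of the synapse, and Grm5 is also known from astrocytes. Group II receptors, Grm2 and Grm3, couple to Gi/o and lower cyclic AMP; Grm3 is known from glia as well as from neurons. Group III receptors, Grm4, Grm7 and Grm8, also couple to Gi/o and are best known as presynaptic receptors that restrain the release of glutamate and GABA.

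All rats were adult female wild-type Sprague-Dawley rats of postnatal day 70 and 250 g. The 4 Intact libraries came from rats that the study describes as intact or sham. In every other group the cord was compressed at the T10 level with an aneurysm clip of 60 g for 1 min. The 3 sub-SCI libraries were taken 7 days later, which is 0 weeks post-transplantation (wpt), and represent the subacute injury. At that day the +MSC rats received an intrathecal dose of mesenchymal stem cells from human umbilical cord (hUC-MSCs), and the +PBS rats, which the labels name only as injured without cells, received the saline vehicle according to the methods. The +PBS groups held 3 libraries at 1 wpt, 2 at 2 wpt and 4 at 4 wpt, and the +MSC groups held 3, 3 and 4. These sizes follow the labels. The methods name +MSC-2w, not +PBS-2w, as the smaller group at 2 wpt. The study's clustering result, however, counts 3 +MSC-2w samples, as the labels do. Comparisons at that week depend on the labels being right. Each library came from a 5 mm piece of cord centred on the lesion, so that neurons, glia, blood cells and scar tissue were sequenced together. The methods state that rats were given cyclosporin A daily, and reads that mapped to the human genome were removed before counting. Against Intact, the injury cannot be told apart from the surgery, injection and drug that came with it, and the labels give the same age to all groups although collection times differed.

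Total counts per library lay between 19496602 and 43468509, with a median of 26158978.5. All 12 neuron markers were detected in every group, and their summed level was 12729 to 15171 CPM in Intact, where CPM stands for a gene's reads relative to the scaled total of its library. In 7 of the 8 groups, the library numbered replicate 1 deviated from its group mean along with the other replicate 1 libraries. The median correlations were 0.0882 to 0.225 across genes, and in +PBS-2w this value was -0.043. The other replicate numbers were not examined in this way. Single libraries changed several results below. Several calls at 2 wpt and over the weeks depended on single libraries, among them +PBS-2w replicate 1, without which that group held 1 library. The replicate 1 library of +PBS-4w moved Grm2, Grm4 and Grm5 at 4 wpt. Nothing in the labels says which libraries of a group came from separate animals, although the methods call them biological replicates, so the p-values measure the spread between these libraries.

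Of the 6 members, 3 had a RefSeq promoter window on the GRCr8 assembly of the rat genome, Grm5, Grm7 and Grm8. The window of Grm7 is shown, since only in that gene did it reach the annotated 5′ end, ending 12 bases inside the gene's span, whereas the windows of Grm5 and Grm8 lay 11042 and 9445 bases inside theirs. It covers 250 bases at chr4:145286476-145286725 on the plus strand. Capitals mark the GC box, searched as GGGCGG on both strands and so also as its reverse complement CCGCCC.
Grm7: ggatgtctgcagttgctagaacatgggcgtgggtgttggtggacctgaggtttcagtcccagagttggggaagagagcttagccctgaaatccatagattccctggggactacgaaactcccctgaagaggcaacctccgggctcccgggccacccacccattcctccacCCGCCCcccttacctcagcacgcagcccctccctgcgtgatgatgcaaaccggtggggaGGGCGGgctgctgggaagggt
The stretch was 62.0% G or C and held 9 CpG dinucleotides, against medians of 51.2% and 5 over 33465 windows of the same length. It held 2 GC boxes, a motif found at least once in 30.47% of the windows. No match was found there for the TATA box, searched as TATAAA and present in 12.93% of the windows. The CCAAT box, searched by those letters and present in 34.02%, was not found either. The deposited counts carry no measure of this promoter's activity apart from the transcript itself.

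In the Intact cord the receptors differed widely in level. Per kilobase of the gene length in the file, Grm3 was highest at 22.9 ± 2.53 CPM per kb (SD, n = 4). Next came Grm4 at 10.9 ± 0.859 CPM per kb, Grm5 at 8.42 ± 0.692 and Grm7 at 7.35 ± 0.0498. Grm8 followed at 2.40 ± 0.168 CPM per kb, and Grm2 was lowest at 0.563 ± 0.295. The gap between Grm5 and Grm7 was small beside the gaps around Grm3 and Grm8. Grm2 rested on few reads, between 5 and 76 per library, whereas Grm3 had 211 to 2278, Grm4 40 to 845, Grm5 97 to 755, Grm7 44 to 483 and Grm8 14 to 260. Grm4 is listed in the file as a processed transcript and the other members as protein-coding genes. All 6 passed the filter on low counts, and 17990 genes were tested in all.

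**Figure D1:**
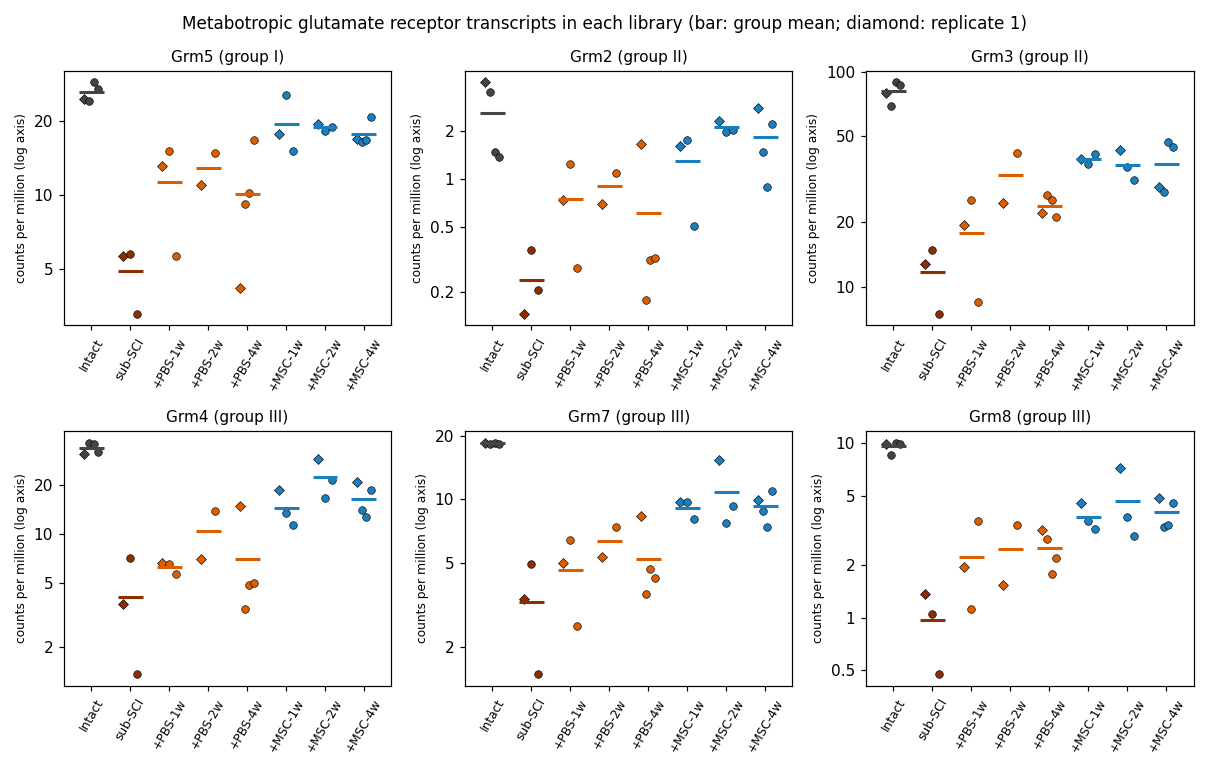
Level of each receptor gene in every library, in CPM on a log axis, by group. Points are libraries, diamonds are replicate 1 and bars are group means. The sub-SCI libraries lie below all Intact libraries for each of the 6 genes, and the +MSC means lie between the sub-SCI and Intact means.

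To see what the subacute injury did to the receptors, sub-SCI was compared with Intact. All 6 receptor transcripts were lower at the lesion, with group means of 9.19% (Grm2) to 18.7% (Grm5) of the Intact mean. In bulk tissue, fewer cells of a type and less RNA per cell cannot be told apart.

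Grm5 (ENSRNOG00000016429), the Gq-coupled receptor, was present at 24.7, 24.3, 28.9 and 27.2 CPM in the Intact libraries. In sub-SCI it was at 5.67, 5.76 and 3.29 CPM. The injured libraries lay far below the Intact ones, and the smallest fall among the 6 receptors was that of Grm5, by 2.42 on the log2 scale with an SE of 0.358 (adjusted p = 5.52e-06 from the quasi-likelihood test of edgeR). Grm3 (ENSRNOG00000005519), the group II receptor activated by the peptide transmitter N-acetylaspartylglutamate (NAAG) as well as by glutamate, measured 79.3, 69.2, 89.2 and 86.6 CPM in Intact. It measured 12.8, 14.8 and 7.46 CPM in sub-SCI. This fall was 6.95-fold, with no overlap between the groups (log2 fold change -2.80 ± 0.309, adjusted p = 1.10e-07 by edgeR). Its group II partner Grm2 (ENSRNOG00000013171), a presynaptic receptor, ranged from 1.37 to 3.98 CPM in Intact and from 0.145 to 0.362 CPM in sub-SCI. The fitted change of Grm2 was -3.43 ± 0.727 on the log2 scale (adjusted p = 3.27e-04, edgeR), the widest error among the members.

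Among the presynaptic group III receptors, Grm4 (ENSRNOG00000000487) had 31.4, 36.8, 36.0 and 32.1 CPM in Intact and 3.69, 7.14 and 1.36 CPM in sub-SCI. The 3 injured libraries differed more among themselves, relative to their level, than the 4 Intact ones, and all lay below them. The level was 8.40-fold lower (log2 fold change -3.07 ± 0.481, adjusted p = 1.13e-05 in edgeR). Grm7 (ENSRNOG00000005662), the group III receptor with the lowest affinity for glutamate, was nearly constant in Intact at 18.5, 18.3, 18.5 and 18.4 CPM. In sub-SCI it was at 3.37, 4.93 and 1.49 CPM, a fall of 5.64-fold (log2 fold change -2.50 ± 0.368, edgeR adjusted p = 5.24e-06). Grm8 (ENSRNOG00000021468) went from 8.61 to 10.1 CPM in Intact to 0.475 to 1.37 CPM in sub-SCI, 9.89-fold lower (log2 fold change -3.31 ± 0.422, edgeR adjusted p = 8.14e-07). The sub-SCI library of replicate 3 was lowest for 5 of the 6 receptors, Grm2 being the exception.

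A gene was called where the absolute log2 fold change was above 1 and the adjusted p under 0.01. By that rule 6 of 6 receptors were called lower in sub-SCI, where 17.5% of all genes tested were. All 6 also had every sub-SCI library below every Intact library, which held for 34% of the genes tested. The median log2 fold change of the 6 was -2.93, beside -0.02 over all genes tested.

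How long the deficit lasted without cells was asked by setting +PBS against the same Intact libraries at each week. At 1 wpt, 5 of the 6 receptors were called lower (12.5% of all genes tested were), at 2 wpt 3 (5.66%) and at 4 wpt 6 (10.7%). The medians of the 6 log2 fold changes were -2.05, -1.52 and -1.88.

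Grm3 measured 19.4, 25.3 and 8.45 CPM in +PBS-1w, 24.6 and 41.9 CPM in +PBS-2w, and 22.1, 26.6, 25.4 and 21.1 CPM in +PBS-4w. It was called lower than in Intact at all 3 weeks, and the log2 fold changes were -2.19, -1.29 and -1.77 (adjusted p = 3.49e-06, 0.00487 and 1.14e-05, edgeR). At 4 wpt its libraries were close together and stood at 29.3% of the Intact mean. Grm7, called lower at all 3 weeks as well, had 4.99, 6.42 and 2.52 CPM at 1 wpt, 5.31 and 7.41 CPM at 2 wpt, and 8.38, 3.56, 4.70 and 4.27 CPM at 4 wpt. Its call at 2 wpt was lost without Intact replicate 1, 2 or 3 (adjusted p = 0.0108 to 0.0114 in edgeR). The Grm3 call at that week was lost without Intact replicate 3 (adjusted p = 0.0111 in edgeR). Grm8, the third receptor called at each week, ranged from 1.12 to 3.60 CPM over the 9 +PBS libraries, all below the lowest Intact value of 8.61 CPM. Its group means stayed at 23.2% to 25.96% of Intact from 1 to 4 wpt.

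Grm4 measured 6.63, 6.57 and 5.64 CPM in +PBS-1w, 7.04 and 13.8 CPM in +PBS-2w, and 14.8, 3.46, 4.83 and 4.95 CPM in +PBS-4w. It was called at 1 and 4 wpt, while at 2 wpt the log2 fold change of -1.71 had an adjusted p of 0.0141 (edgeR). At 2 wpt DESeq2 called it on all libraries (adjusted p = 0.00207) and on the groups compared (1.63e-10), as did edgeR on the groups compared (0.00203). The replicate 1 library held the highest Grm4 value at 4 wpt, well above the other 3, and without it the log2 fold change at 4 wpt went from -2.28 to -2.90. Grm5 measured 13.1, 15.2 and 5.64 CPM in +PBS-1w, 11.01 and 14.9 CPM in +PBS-2w, and 4.21, 9.24, 10.2 and 16.9 CPM in +PBS-4w. Here the same replicate 1 library was the lowest of its group. The Grm5 deficit was the smallest of the 6 at each week, with means at 43.1%, 49.3% and 38.6% of Intact, and at 2 wpt it was not called (log2 fold change -1.02, adjusted p = 0.0433, edgeR). DESeq2 on the groups compared did call it at 2 wpt (1.46e-07). The Grm5 call at 1 wpt was lost without Intact replicate 1 or 3 or +PBS-1w replicate 3 (adjusted p = 0.0102 to 0.0372 in edgeR). EdgeR on the groups compared called it neither at 1 wpt (0.0124) nor at 4 wpt (0.0106). Both calls were also lost on leaving out all replicate 1 libraries. Grm2 ranged from 0.176 to 1.64 CPM over the +PBS libraries, and at 4 wpt its replicate 1 library overlapped Intact. It was called at 4 wpt alone (log2 fold change -2.04, adjusted p = 0.00656, edgeR), with adjusted p of 0.0255 and 0.113 at 1 and 2 wpt. The call at 4 wpt was lost in 5 of 8 fits with 1 library left out (adjusted p = 0.0224 to 0.0283 in edgeR) and in edgeR on the groups compared (0.0435). These were the fits without Intact replicates 1 and 2 and without +PBS-4w replicates 2, 3 and 4, and the log2 fold change ran from -1.71 to -3.20, the latter without +PBS-4w replicate 1. At 1 wpt DESeq2 on the groups compared called Grm2 (log2 fold change -1.73, adjusted p = 0.00817).

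Every +PBS library lay below every Intact library for 6 receptors at 1 wpt and 2 wpt and for 5 at 4 wpt, beside 30.5%, 31.3% and 21.3% of all genes tested. The 3 calls at 2 wpt rested on 2 +PBS libraries. Without +PBS-2w replicate 1, which left 1 library there, the Grm3, Grm7 and Grm8 log2 fold changes were -0.93, -1.29 and -1.47. With all libraries they were -1.29, -1.53 and -1.96. Without +PBS-2w replicate 2, which also left 1 library, they were -1.72, -1.79 and -2.64. Leaving out the replicate 1 libraries of all groups gave -0.94, -1.29 and -1.46.

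From sub-SCI to +PBS-4w, a span of 4 weeks without cells, the fitted differences were above 0 for all 6 receptors (54.9% of genes tested were) and none was called (4.28% were called higher). At an unadjusted p under 0.05 there were 3, beside 36.9% of genes. These were Grm8 (1.37 ± 0.401, adjusted p = 0.0161), Grm5 (1.04 ± 0.343, adjusted p = 0.0300) and Grm3 (1.03 ± 0.289, adjusted p = 0.0122), all as log2 fold change ± SE in edgeR. For Grm2, Grm4 and Grm7 the 95% intervals of the difference were -0.12 to 2.89, -0.14 to 1.73 and -0.05 to 1.41. DESeq2 called 1 receptor in this comparison, Grm8 when fitted on all libraries and Grm3 when fitted on the 2 groups. Without +PBS-4w replicate 1, edgeR called 1, Grm5, at 1.29, while Grm2 went from 1.39 to 0.18 and Grm4 from 0.79 to 0.11.

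**Figure D2:**
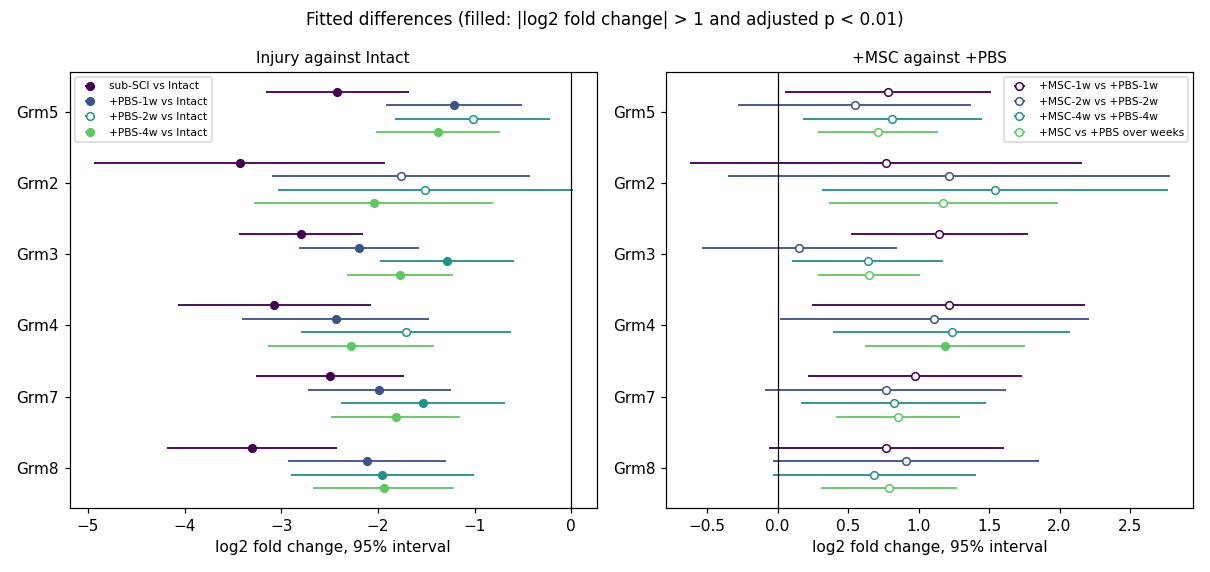
Fitted log2 fold changes of the 6 receptor genes with 95% intervals, for injury against Intact (left) and +MSC against +PBS (right). Filled points passed both thresholds. On the left 6, 5, 3 and 6 genes are filled for sub-SCI, +PBS-1w, +PBS-2w and +PBS-4w, and on the right only Grm4 is filled, in the difference over the weeks.

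Whether the transplanted cells changed receptor transcripts was asked by comparing +MSC with +PBS at the same week and as the mean of the 3 weekly differences. All 6 receptors had fitted differences above 0 with cells at every week, by 1.11-fold to 2.92-fold, beside 49.7%, 50.2% and 45.5% of all genes tested. Without +PBS-2w replicate 1 the Grm3 difference at 2 wpt was -0.17. No receptor was called at a single week. Over the weeks Grm4 was called, and the other 5 had adjusted p between 0.00728 and 0.0339 with fold changes of 1.57 to 2.26. Without +PBS-2w replicate 1, only 1 library was left in that group, and the Grm4 log2 fold change over the weeks was 1.03. That library, replicate 2, was higher than replicate 1 for all 6 receptors, with Grm3 at 41.9 against 24.6 CPM. The study describes 1 +PBS-2w sample, without its number, as an outlier that grouped with its +MSC-2w samples. In the difference over the weeks, 47.6% of genes lay above 0, 1.61% of all genes tested were called higher, and 23.2% had an adjusted p under 0.05 in either direction.

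Grm4 measured 18.8, 13.5 and 11.3 CPM in +MSC-1w, 29.2, 16.8 and 21.6 CPM in +MSC-2w, and 20.8, 14.1, 12.7 and 18.6 CPM in +MSC-4w. At 1 and 2 wpt each of these values was above every +PBS value, and at 4 wpt only the +PBS library of replicate 1 (14.8 CPM) reached into the +MSC range. The difference over the weeks was 1.19 ± 0.272 on the log2 scale, or 2.28-fold (adjusted p = 0.00470, edgeR), and the group mean was higher with cells at 3 of 3 weeks. Leaving out 1 library at a time moved its log2 fold change between 1.03 and 1.39, and the adjusted p in edgeR between 2.01e-04 and 0.0435. The call was lost without +PBS-1w replicate 3, +PBS-2w replicate 1, +MSC-1w replicate 1 or +MSC-2w replicate 1. Over the 9 other alternatives the adjusted p ranged from 5.19e-05 to 0.0245. The last value, with a log2 fold change of 1.09, came from leaving out all the replicate 1 libraries.

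Grm7, the other group III receptor with little overlap, measured 9.71, 9.70 and 8.03 CPM in +MSC-1w, 15.4, 7.76 and 9.35 CPM in +MSC-2w, and 9.95, 8.81, 7.44 and 10.9 CPM in +MSC-4w. It was above all +PBS libraries at 1 and 2 wpt, and at 4 wpt again only the replicate 1 library of +PBS overlapped. Its difference over the weeks was 0.86 ± 0.212 (log2, adjusted p = 0.00728, edgeR), past the limit on p and under that on size. Grm8 ranged from 2.93 to 7.23 CPM over the 10 +MSC libraries, and its difference was 0.79 ± 0.233 (log2, adjusted p = 0.0189, edgeR).

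Grm5 measured 17.7, 25.6 and 15.2 CPM in +MSC-1w, 19.6, 18.3 and 18.9 CPM in +MSC-2w, and 16.9, 16.5, 16.9 and 20.9 CPM in +MSC-4w. The 2 wpt libraries were the most alike, and at 4 wpt the highest +PBS library, 16.9 CPM, lay within the +MSC range. Over the weeks Grm5 differed by 0.71 ± 0.205 (log2, adjusted p = 0.0164, edgeR). Grm3 measured 39.1, 37.2 and 41.5 CPM in +MSC-1w, 43.4, 36.2 and 31.4 CPM in +MSC-2w, and 29.0, 27.5, 47.2 and 44.5 CPM in +MSC-4w. It was above +PBS without overlap at 1 and 4 wpt, but not at 2 wpt, where a +PBS library reached 41.9 CPM. The Grm3 difference over the weeks was the smallest of the 6, 0.65 ± 0.174 (log2, adjusted p = 0.0116, edgeR). Grm2 ranged from 0.512 to 2.75 CPM over the +MSC libraries and differed by 1.18 ± 0.391 (log2, adjusted p = 0.0339, edgeR).

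By week, the counts of receptors with every +MSC library above every +PBS library were 4 at 1 wpt (Grm3, Grm4, Grm5, Grm7), 4 at 2 wpt (Grm2, Grm4, Grm5, Grm7) and 2 at 4 wpt (Grm3, Grm8). The shares of all genes tested that did so were 15.3%, 18.6% and 6.08%. No receptor did so at all 3 weeks, beside 2.68% of the genes. In single weeks edgeR called 0 receptors, beside 0.0111%, 0% and 0.495% of all genes called in either direction. At an unadjusted p under 0.05 there were 4, 1 and 5 receptors, beside 17.9%, 12.3% and 22.5% of genes. DESeq2 on the groups of the comparison called 1 at 1 wpt, Grm4, with a log2 fold change of 1.19 and an adjusted p of 1.61e-04, and 0 at 2 and 4 wpt, whereas on all libraries it called 0 at each week. The adjusted p of Grm3 at 1 wpt was 0.0818 and that of Grm4 at 4 wpt 0.0830, both by edgeR. Without +PBS-4w replicate 1, edgeR called 2 receptors at 4 wpt, Grm2 with a log2 fold change of 2.72 and Grm4 with 1.88.

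The difference between +MSC and +PBS was also compared between weeks, and no receptor was called in any of the 3 comparisons, nor was any other gene (0%). The smallest unadjusted p was 0.0365, for Grm3 between 1 and 2 wpt (log2 difference -0.99, 95% interval -1.91 to -0.07, adjusted p = 1 in edgeR). All the other intervals spanned 0 and reached up to 2.62 for Grm2, so that the sizes of the differences at the 3 weeks were not told apart with these libraries.

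To see how near the treated cord came to the uninjured one, +MSC was set against the same Intact libraries. Called lower were 2 receptors at 1 wpt (Grm3 and Grm8, where 2.63% of all genes tested were called lower), 1 at 2 wpt (Grm3, 0.461%) and 2 at 4 wpt (Grm3 and Grm8, 1.53%). Grm3 stood at 48.4%, 45.6% and 45.7% of its Intact mean at 1, 2 and 4 wpt, and the log2 fold changes were -1.05, -1.13 and -1.13 (adjusted p = 0.00760, 0.00704 and 0.00237, edgeR). Grm8 stood at 39.4%, 48.3% and 42.0%. Grm4 stood at 42.7%, 66.2% and 48.6%, and Grm7 at 49.6%, 58.8% and 50.4%. In the edgeR fit of all libraries neither was called. Grm5 stood at 74.3%, 72.0% and 67.7%, and its 95% intervals against Intact were -1.11 to 0.25, -1.16 to 0.21 and -1.19 to 0.07 on the log2 scale. For Grm2 the group means were 49.8%, 81.1% and 70.8% of Intact, with intervals that reached from -2.27 to 0.96 over the weeks. Every +MSC library lay below every Intact library for 4 receptors at 1 wpt (Grm3, Grm4, Grm7, Grm8) and for 5 at 2 and 4 wpt (those and Grm5), beside 25.5%, 21.3% and 20.4% of genes. These calls stood close to the threshold. At 1 wpt there were 0 without a filter on low counts and 0 on leaving out any 1 library, at 2 wpt there were 0 on leaving out any library but Intact replicate 2, and at 4 wpt 1 on leaving out any library but +MSC-4w replicate 2, without which there were 0. Other settings added calls. On the groups compared Grm4 was called lower at 1 wpt by DESeq2 (adjusted p = 3.54e-11) and edgeR (4.97e-04). It was also called there at 4 wpt (DESeq2 2.13e-08, edgeR 0.00101). Grm7 was called at 1 wpt by DESeq2 on all libraries (adjusted p = 0.00984), and Grm8 at 2 wpt by DESeq2 on the groups compared (0.00144). The +MSC and +PBS differences from Intact share the Intact libraries and are set side by side here, not against each other.

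Summed over the 6 genes per kilobase, the family measured 52.5 ± 3.002 CPM per kb in Intact (SD, n = 4) and 7.76 ± 3.16 in sub-SCI (n = 3). In +PBS the sums were 13.2 ± 4.75, 20.2 ± 6.84 and 15.0 ± 1.33 CPM per kb at 1, 2 and 4 wpt. In +MSC they were 26.9 ± 2.19, 29.6 ± 5.78 and 26.6 ± 3.67. At each week the lowest +MSC sum was above the highest +PBS sum, with 24.3 against 17.2, 25.9 against 25.1 and 22.2 against 16.8 CPM per kb. Grm3 makes up the largest part of these sums, which are given without a test.

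The make-up of the family shifted less than its total. Grm3 held 43.6% of the summed level in Intact and 35.5% to 46.2% in the other groups. Grm5 held 16.0% ± 0.448 in Intact and 20.9% to 26.7% in the 7 injured groups. Its lowest share in any library was in +PBS-4w replicate 1, 8.02%, while all other injured libraries lay between 17.3% and 35.4%, above the Intact maximum of 16.5%. Grm4 held 20.7% in Intact, 14.3% to 16.4% in sub-SCI and +PBS, and 17.2%, 24.0% and 19.95% in +MSC at 1, 2 and 4 wpt. These are means, and the libraries spread widely. They ran from 19.1% to 23.8% in Intact and from 9.92% to 21.4% in sub-SCI. In +PBS they ran from 12.1% to 22.6%, 14.6% to 17.5% and 8.01% to 28.1% at 1, 2 and 4 wpt. The 28.1% was +PBS-4w replicate 1, and the others of that group lay at 8.01% to 10.7%. Grm7 kept 12.8% to 16.1% throughout.

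**Figure D3:**
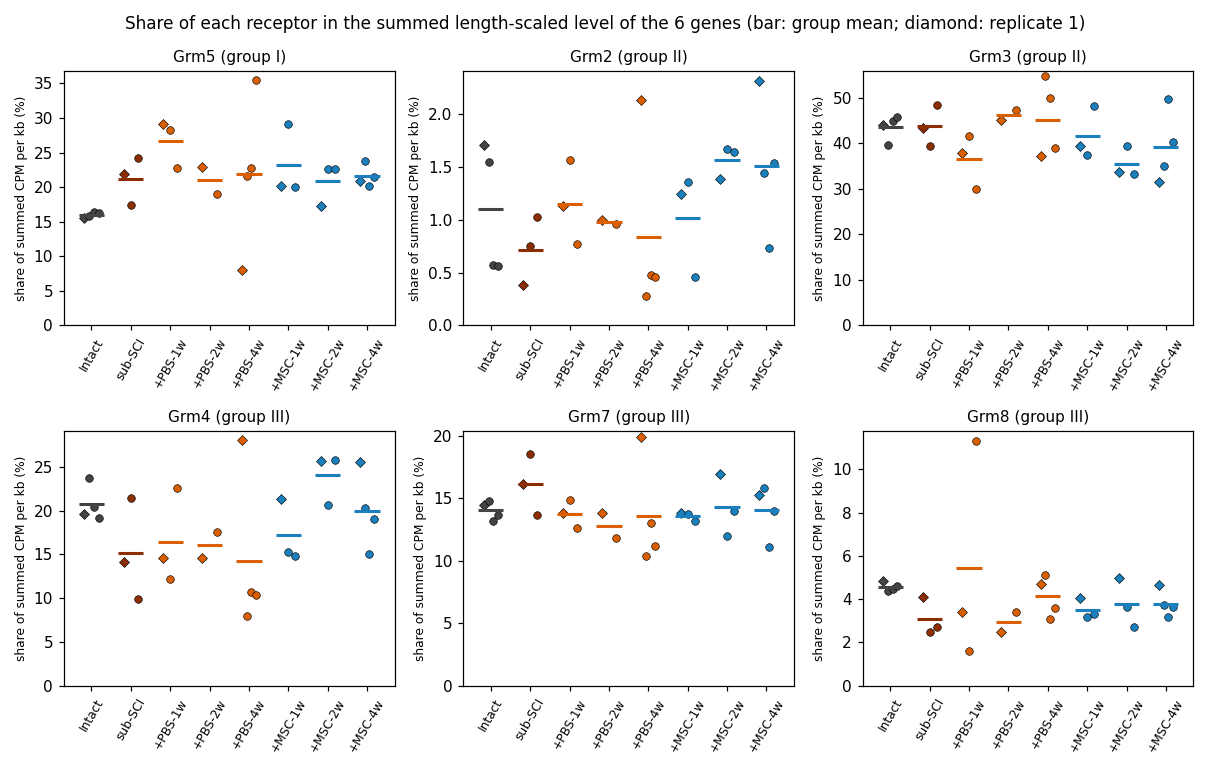
Share of each receptor gene in the summed CPM per kb of the 6 genes, in percent, in every library, with group means as bars and replicate 1 as diamonds. For Grm5 all injured libraries but one lie above the Intact libraries, and the exception is +PBS-4w replicate 1 at 8.02%.

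Neuron markers moved with the receptors, while markers of other cell types did so in part or not at all. The part of the cell types in the result was not tested. Of 12 neuron markers, 11 were called lower in sub-SCI than in Intact (median log2 fold change -3.00), among them Rbfox3, the nuclear antigen NeuN, at -3.40, and Snap25, of the synaptic release machinery, at -3.19. Their summed level fell from 12729 to 15171 CPM in Intact to 625 to 2836 CPM in sub-SCI. It was 1567 to 3576, 3439 to 6627 and 2229 to 8026 CPM in +PBS at 1, 2 and 4 wpt, and 4809 to 9520, 7834 to 11572 and 7697 to 9554 CPM in +MSC. No neuron marker was at 0 in any group. Between +MSC and +PBS over the weeks, 4 of 12 neuron markers were called higher, Rbfox3, Nefl, Nefm and Slc12a5 (median 1.04). Of 10 astrocyte markers, 6 were called lower in sub-SCI (median -1.33), with Gfap at 0.34 and Aqp4, the water channel of astrocyte end-feet, at -1.46, and 0 were called over the weeks (median 0.24). Against Intact, the astrocyte medians in +PBS were -0.65, -0.03 and -0.05 at 1, 2 and 4 wpt. From sub-SCI to +PBS-4w 7 of the 10 were called higher, beside 4.28% of all genes tested. Of 11 oligodendrocyte markers, 7 were called lower in sub-SCI (median -1.18, Mbp -1.10). They stayed low in +PBS, where 6, 3 and 6 were called lower than in Intact at 1, 2 and 4 wpt. The medians were -1.27, -0.98 and -1.24, and 12.5%, 5.66% and 10.7% of all genes tested were called lower. In +MSC 4, 1 and 5 were called lower than in Intact, beside 2.63%, 0.461% and 1.53% of genes. Between +MSC and +PBS over the weeks 0 were called, with 9 above 0 and 2 below (median 0.26).

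Lists of other cell types had calls in the opposite direction after injury. In sub-SCI, 10 of 12 markers of microglia and macrophages were called higher (Aif1 at 3.63, Cx3cr1 at 1.05), as were 8 of 8 of fibroblasts (Col1a1 at 4.38, Col1a2 at 3.96), 3 of 7 of endothelial cells (Cdh5, Esam, Emcn), 2 of 7 of Schwann cells (Ngfr, Egr2) and 2 of 6 of oligodendrocyte precursors (Pdgfra, Vcan). Below 0 lay 2 of the 7 endothelial, 3 of the 7 Schwann cell and 2 of the 6 precursor markers. Of the 17990 genes tested, 6132 were called in either direction in sub-SCI, 3151 of them lower. Between +MSC and +PBS over the weeks, 1 endothelial marker, Cdh5, was called lower at -1.26 and no marker of the other 4 lists was called. The fibroblast list had a median of -1.23 in that comparison, with 8 of 8 values below 0.

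Set against the mean of the 12 neuron markers in the same library, the group means of the receptors lay between -0.48 and 0.93 of their Intact positions on the log2 scale. Relative to that mean, Grm3 in sub-SCI was 0.18 above its Intact position on the log2 scale, Grm7 0.39 above, and Grm2 0.018 above, while Grm4 and Grm8 were both at -0.31. Grm5 was above its Intact position in every injured group, by 0.57 in sub-SCI, 0.93, 0.53 and 0.53 in +PBS and 0.60, 0.20 and 0.24 in +MSC at 1, 2 and 4 wpt. Grm3 was below it in +MSC at 2 and 4 wpt, by values of -0.47 and -0.36. Grm8 was at -0.28, -0.47 and -0.45 in +MSC at 1, 2 and 4 wpt and at -0.48 in +PBS-2w, and Grm4 was at -0.45 in +PBS-4w. Grm2 was 0.53 above its Intact position in both +PBS-1w and +MSC-2w, less than the SD of 0.67 between its Intact libraries. Grm7 stayed between -0.19 and 0.39 in all injured groups. These are differences of log2 CPM, given as a description. With +PBS-4w replicate 1 the spread of Grm5 was wide, since that library lay at -5.96 and the other 3 between -3.21 and -2.70. The library range of Grm5 overlapped that of Intact in sub-SCI, +PBS-4w and each +MSC group.

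**Figure D4:**
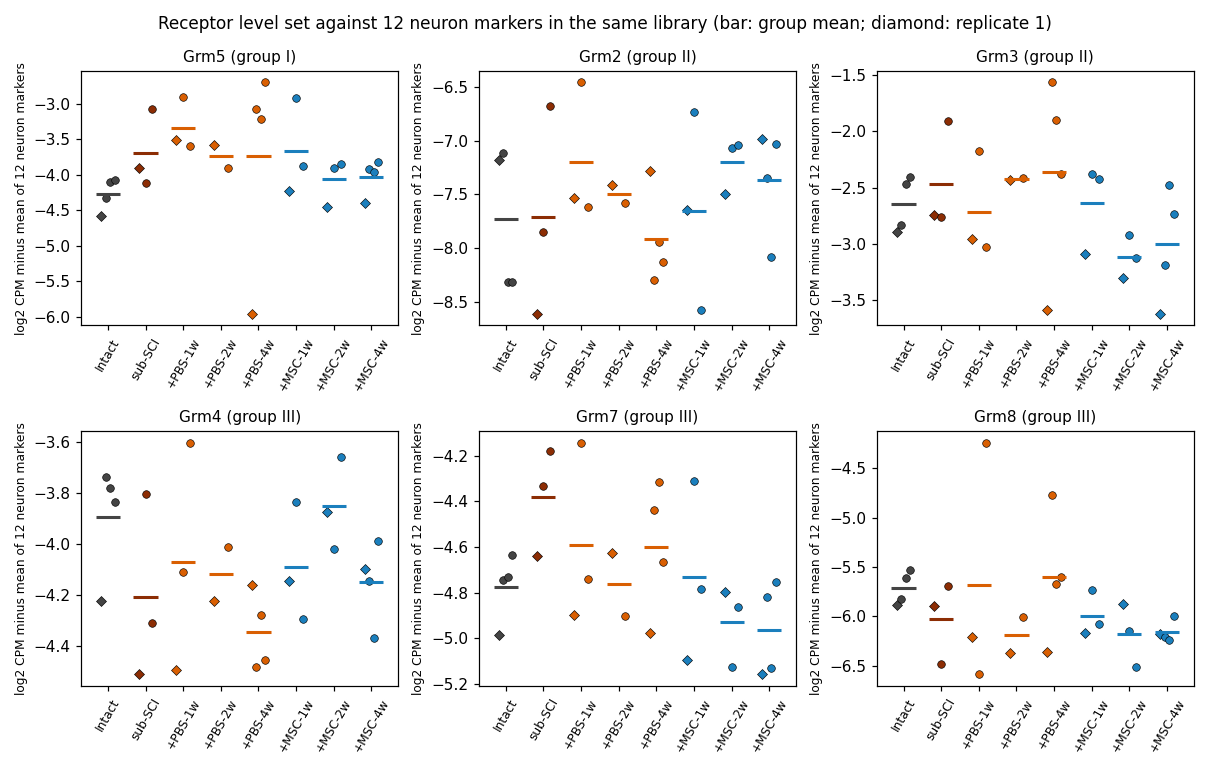
Log2 CPM of each receptor gene minus the mean log2 CPM of 12 neuron markers in the same library, with group means as bars and replicate 1 as diamonds. For Grm5 the injured group means lie 0.20 to 0.93 above the Intact mean, and for Grm4 and Grm8 the sub-SCI means lie at -0.31.

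The genes downstream of the receptors followed in part. Of 14 genes of the Gq pathway and its scaffolds, which serve Grm5, 7 were called lower in sub-SCI (median -0.96) and 1 higher with cells over the weeks (median 0.28). In sub-SCI 3 of the 14 lay above 0 and 0 were called higher. Shank2 and Shank3, postsynaptic scaffolds that link the receptor through Homer, fell by 2.63 and 1.01 on the log2 scale in sub-SCI, and Plcb4, a phospholipase C, fell by 1.51. The Homer genes, named after their values were seen, did not all fall. Mean Homer1 was 10.93 CPM in Intact and 11.02 CPM in sub-SCI. Homer3 was higher in sub-SCI (82.9 against 41.9 CPM) and Homer2 lower (7.12 against 10.02 CPM). The gene called higher with cells was Shank1 (1.07 ± 0.187, adjusted p = 8.15e-04, edgeR). Plcb1, another phospholipase C of the pathway, had a log2 fold change of 0.73 over the weeks, and Shank3 0.31.

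Of 16 genes of the Gi/o pathway and partners of group II and III receptors, 13 were called lower and 2 higher in sub-SCI (median -1.97). The genes that rose were the G protein subunits Gnai3 (1.22) and Gnai2 (1.14), both of wide expression beyond neurons, whereas Adcy5, an adenylate cyclase inhibited by Gi, fell by 1.66. With cells over the weeks 3 of the 16 were called higher (median 0.56), among them Kcnj3, a subunit of the potassium channel opened by G protein βγ, at 1.13. The others were Kcnj6, of the same channel family, at 1.05 and Adcy1, an adenylate cyclase, at 1.04, named here after their values were seen, as were the markers above beyond the first 2 of their lists. Elfn1, a postsynaptic protein that recruits Grm7 to presynaptic endings, measured 23.1 CPM in Intact, 4.31 in sub-SCI and 10.2 in +MSC-4w, with a log2 fold change of 0.83 over the weeks. Adcy2 had 0.66.

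NAAG, the peptide agonist of Grm3, is made by enzymes encoded by Rimkla and Rimklb and cut by that of Folh1. All 3 were called lower in sub-SCI, out of 4 genes of NAAG metabolism (median -1.54). Rimkla fell by 3.04 on the log2 scale, Folh1 by 1.72 and Rimklb by 1.36. Rimkla was also the 1 gene of the list called higher with cells over the weeks (1.01 ± 0.124, adjusted p = 1.30e-04, edgeR), while Folh1 was at 0.46 and Rimklb at 0.14.

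Of 9 genes of glutamate supply and clearance, 4 were called lower in sub-SCI (median -0.69). The astrocytic transporter Slc1a2 fell by 3.03 and the vesicular transporter Slc17a6 also by 3.03 on the log2 scale. The other 2 vesicular transporters, Slc17a7 and Slc17a8, named after their values were seen, fell by 5.02 and 4.12. Over the weeks 1 gene was called higher with cells, Slc17a6 at 1.01 (adjusted p = 0.00776, edgeR). Slc1a3, the other main glial transporter, was at 0.43.

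The other receptors of the same transmitter were compared in the same way. Of 9 AMPA and kainate receptor subunits, 8 were called lower in sub-SCI (median -2.06) and 0 higher over the weeks (median 0.59). Gria4, Gria2 and Gria1 had -2.89, -2.34 and -2.24 in sub-SCI, and Gria4, Grik1 and Gria3 had 0.94, 0.92 and 0.86 over the weeks. Of 7 NMDA receptor subunits, 6 were called lower (median -2.62) and 3 higher over the weeks (median 0.70), namely Grin2b (-2.70 and 1.03), Grin1 (1.02 over the weeks) and, named after its value was seen, Grin2a (1.29). Grin3a and Grin2d had -2.62 and -1.96 in sub-SCI, and Grin2d had 0.70 over the weeks. Of the 2 GABA-B receptor genes, which encode the metabotropic receptor of the inhibitory transmitter, both were called lower in sub-SCI (Gabbr2 -2.84, Gabbr1 -1.68), and Gabbr2 was called higher over the weeks (1.06, with Gabbr1 at 0.49). Beside these lists the 6 metabotropic glutamate receptors, with medians of -2.93 and 0.82 and 6 and 1 calls, were not tested for a difference.

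**Figure D5:**
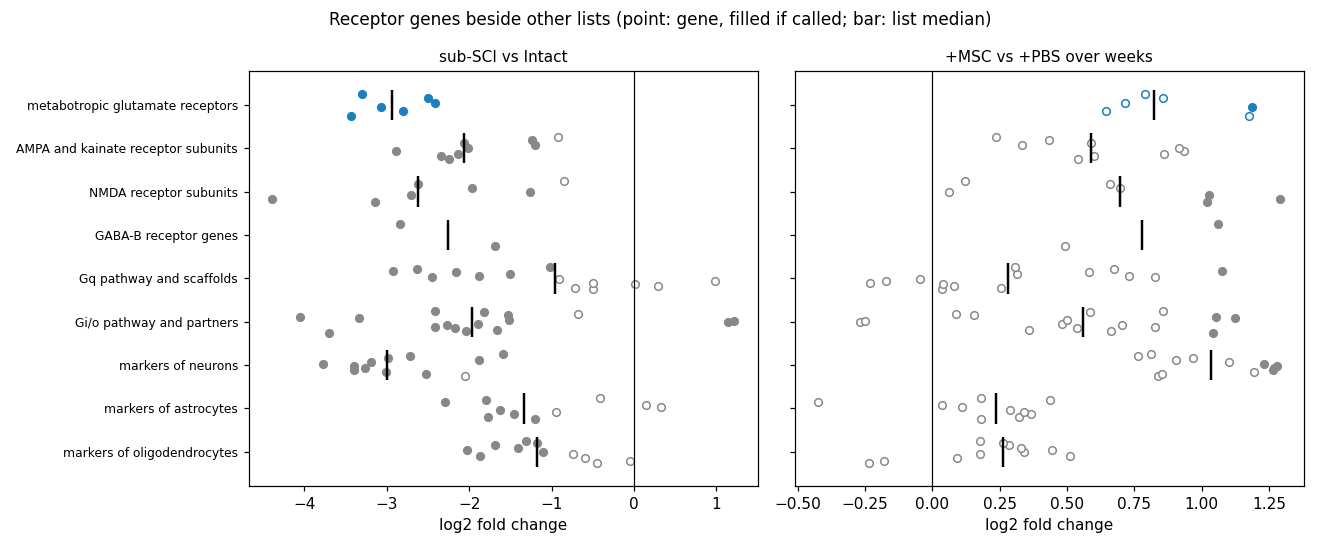
Fitted log2 fold changes of single genes by list, for sub-SCI against Intact (left) and for +MSC against +PBS over the weeks (right); filled points passed both thresholds and bars are list medians. The metabotropic receptors have medians of -2.93 and 0.82, and neuron markers -3.00 and 1.04.

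The genes whose log2 CPM tracked each receptor most closely over the 26 libraries are named with Pearson's r, which here mixes differences between groups and within them. Grm4 had the closest companions, MAST1, Hapln4 and Vwa5b2, each with r of 0.99, and 0.96 to 0.97 after group means were removed. Grm7 was followed by Npas1, Lrfn5 and Syn1 (0.98 to 0.99). Nearest to Grm5 were Adra1a, Cacna1e and Pclo (0.96, and 0.91 to 0.93 within groups). Grm3 went with Cntn2, AABR07018857.1 and Gpr37 (0.96 to 0.97), Grm8 with Mark1, Syt12 and Rasgef1a (0.95, but 0.70 to 0.72 within groups), and Grm2 with Hnmt, Tbkbp1 and Nsg1 (0.90 to 0.92). Among the receptors themselves, Grm4 and Grm7 were most alike (0.96, and 0.86 within groups). Grm5 was close to Grm3 (0.87, and 0.57 within groups), but within groups it showed little relation to Grm4 (-0.04), Grm2 (-0.04) or Grm8 (-0.17). All these points share library depth and the same tissue pieces, and no p is given.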

How the data were processed

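RNA sequencing was carried out on 26 libraries of rat spinal cord in 8 groups, taken with their replicate numbers from the sample labels. The authors trimmed reads with Trim Galore 0.5.0, discarded those that HISAT2 2.1.0 placed on the human assembly GRCh38, and mapped what was left to the rat assembly Rnor6. Properly paired alignments were selected with SAMtools 1.9, and featureCounts 1.6.4 gave the count per gene. The deposited values are raw counts per gene, and each library's own file equalled its column of the joint table (26 of 26). The annotation release and strand setting are not given in the sources used here, so overlapping and antisense genes are uncertain. No Rnor6 annotation was used and no gene coordinates are given on that build. Promoter sequence is from RefSeq on GRCr8.

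The analysis used edgeR 4.0.16 and limma 3.58.1 under R 4.3.3. Genes kept by filterByExpr (17990 of 32883) were scaled by TMM and fitted in 1 quasi-likelihood model with the 8 groups as levels (glmQLFit, glmQLFTest), and p-values were adjusted by Benjamini-Hochberg over all genes tested. The 12 comparisons between groups and 3 differences between weeks used this fit. A check of the fit on simulated counts covered 3 of the comparisons between groups and included no outlying libraries. Intervals of a log2 fold change are at the 95% level from the fit. CPM is TMM-scaled, log2 CPM has a prior count of 2, and CPM per kb divides by the gene length in the file. Alternatives were DESeq2 1.42.0 on all libraries or on the groups compared, edgeR on the groups compared, median-of-ratios scaling, 2 filters, the replicate number as a block, a term for or removal of replicate 1 libraries, and each library left out.

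The members and gene lists were chosen with earlier results of these data known. Beside the members, the text names up to 3 genes per pathway list with the smallest adjusted p in sub-SCI against Intact and in +MSC against +PBS over the weeks, the first 2 genes of each marker list, and the 3 genes most correlated with each member. Some genes that this rule selects are not reported here. Of 146 listed genes, 142 were in the table.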

Additional observations from a re-analysis of the deposited data

Results flagged for a closer look

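In groups of 4 libraries, the receptor values were searched for a library far from the others of its group (Dixon's ratio of the gap to the whole range). Of 18 combinations of receptor and group, 4 met the limit. That limit is met about 1 in 20 times by independent normal values. The combinations share libraries, so their count was not set against chance. Grm2 in +PBS-4w was 1.64 CPM in replicate 1 against 0.176 to 0.321 CPM in the other 3 libraries. Grm4 in the same library was 14.8 CPM against 3.46 to 4.95 CPM. On the log2 scale that library lay above the mean of the other 3 by 2.35 for Grm2, 1.75 for Grm4, 1.00 for Grm7 and 0.49 for Grm8, and it lay at -0.13 for Grm3 and -1.46 for Grm5. Grm5 in +MSC-4w was highest in replicate 4, at 20.9 CPM against 16.5 to 16.9 CPM in the others. Grm8 in Intact was lowest in replicate 2, at 8.61 CPM against 9.88 to 10.1 CPM.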

How the results depend on the processing

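In every setting run, all receptors fitted kept a positive difference between +MSC and +PBS over the weeks and were called lower in sub-SCI (6, or 5 where 10 counts were required in every library, which left Grm2 out). Of the single receptor log2 fold changes recomputed under the alternatives, 1110 kept direction and side of the threshold, 68 lost the call, 22 gained it and 5 changed sign. DESeq2 on all libraries called 1 receptor between +PBS-4w and sub-SCI. DESeq2 on the groups compared called 5 in +PBS-2w against Intact, 1 in +MSC-1w against +PBS-1w, 2 in +MSC-2w against Intact and 1 in +PBS-4w against sub-SCI. Without a filter there were 0 in +MSC-1w and 1 in +MSC-4w against Intact. The replicate numbers were not treated as pairs in the main fit. At 1 and 4 wpt, deviations of same-numbered +MSC and +PBS libraries had r of -0.00893 to 0.233 across genes. Each +MSC library there correlated best with its own number, except +MSC-1w replicate 2 and +MSC-4w replicate 3. At 2 wpt r cannot decide, since the deviations of 2 +PBS libraries mirror each other. These values do not exclude pairing. With the replicate block there were 2 calls over the weeks (Grm2 and Grm4) and 0 in +MSC-1w and +MSC-2w against Intact. The block also gave a call to Grm2 in +PBS-1w (adjusted p = 0.00815, edgeR) and Grm4 in +PBS-2w (0.00728) against Intact. Without the replicate 1 libraries there were 0 calls in +PBS-2w against Intact, 0 over the weeks (1 receptor with adjusted p under 0.05 in place of 6), 0 in +MSC-1w, 0 in +MSC-2w and 1 in +MSC-4w against Intact. In that setting Grm3 was -0.32 and Grm8 -0.0307 between +MSC-2w and +PBS-2w, and Grm2 -0.12 between +PBS-4w and sub-SCI. With 1 library left out, Grm3 at 2 wpt with against without cells ranged from -0.17 (without +PBS-2w replicate 1) to 0.59, and Grm2 in +MSC-2w against Intact from -0.51 to 0.020 (without Intact replicate 1). The cause was not tested. Leaving out 1 library at a time gave 4 to 5 calls in +PBS-1w, 0 to 3 in +PBS-2w and 5 to 6 in +PBS-4w against Intact, 0 at 1 and 2 wpt and 0 to 2 at 4 wpt between +MSC and +PBS, 0 to 2 over the weeks (2 without +PBS-4w replicate 1; 1 to 6 with adjusted p under 0.05, 1 without +PBS-2w replicate 1), 0 to 0, 0 to 1 and 0 to 1 in +MSC at 1, 2 and 4 wpt against Intact, and 0 to 1 between +PBS-4w and sub-SCI. Over all genes, the count over the weeks was 462, 157 without replicate 1 libraries and 45 to 892 with 1 library left out. Between +MSC and +PBS the counts were 2, 0 and 89 by week, 70, 24 and 305 in DESeq2 on all libraries, and 345, 417 and 251 in DESeq2 on the groups compared. Without division by gene length, 17 of 48 shares in the family moved by more than the spread between libraries. Low counts limit Grm2 most, with 5 reads in its lowest library.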
